A study of Mus musculus with 7 samples.

Results

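The RNAs described here are the small nucleolar RNAs (snoRNAs) counted in RNA from crude heart mitochondria of mice. They were taken as the features whose symbol begins with Snord, Snora or Scarna and whose raw counts summed to at least 70 over 7 libraries. Of 49584 listed features 149 carried such a symbol, and 42 of these reached the sum: 39 C/D box snoRNAs (Snord), 2 H/ACA box snoRNAs (Snora28 and Snora31) and 1 Cajal body RNA (Scarna17). A further 18 rows typed snoRNA or scaRNA under other names also reached the sum, with 91799 counts against the members' 339660, and are left out. Shares of the snoRNA counts below are therefore shares of the members' sum. The members were thus chosen by name and by their summed raw count, so their abundance is a description. The rule does not use the comparison between genotypes, though it was set with earlier results of these data known.

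The 3 control libraries came from L/L mice (Tefm +/+ in the labels), which carry a loxP-flanked exon of Tefm on both alleles. The 4 knockout libraries came from L/L, cre mice (Tefm -/-), which carry the same alleles and express cre from the muscle creatine kinase promoter, a promoter that is active in heart and skeletal muscle cells, so other cells of the heart keep the gene. Tefm encodes the mitochondrial transcription elongation factor. Neither the age of the mice nor their strain is given in the sources used here. The series' design speaks of mice, so a library was taken to stand for 1 animal; if that does not hold, p-values measure only the spread between these libraries. The design names 4 control mice, of which 3 libraries were analysed here.

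A C/D box snoRNA is a short RNA that in mammals is usually cut from an intron of a host gene, bound by fibrillarin, NOP56, NOP58 and SNU13, and used in the nucleolus to guide 2′-O-methylation of ribosomal RNA. Its ends carry the C box and the D box, which fold together into the site where those proteins bind. H/ACA box snoRNAs guide pseudouridylation with dyskerin, and Cajal body RNAs guide the modification of spliceosomal RNAs. All 3 kinds are nuclear RNAs, and the fraction sequenced was labelled mitochondrial.

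The sequences of 4 members carry the comparisons below: Snord49a, Snord49b and Snord65, which lie in introns of 1 host transcript, and Snord93, which has a near copy. Capitals mark the C box letters TGATG and the D box letters CTGA where they start in the first or the last 20 bases, read on the RNA's own strand, and positions are in GRCm38 (mm10).
Snord49a (chr11:62603450-62603521, plus strand): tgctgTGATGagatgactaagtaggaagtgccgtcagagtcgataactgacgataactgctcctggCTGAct
Snord49b (chr11:62603079-62603150, plus strand): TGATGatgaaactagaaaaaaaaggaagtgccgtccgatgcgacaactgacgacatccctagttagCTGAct
Snord65 (chr11:62604515-62604586, plus strand): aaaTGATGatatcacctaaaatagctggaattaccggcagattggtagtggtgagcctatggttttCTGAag
Snord93 (chr5:23852210-23852280, plus strand): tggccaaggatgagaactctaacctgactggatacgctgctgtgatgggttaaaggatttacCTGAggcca
Of the 39 C/D box members, 39 held CTGA in that window and 32 (82.1%) held both motifs, against 53 of the 60 C/D box rows under the count minimum (88.3%) and 362 of 1558 snoRNA and scaRNA transcripts of any kind in the annotation (23.2%). A longer C box, TGATGA, was searched first and found in 24 members (61.5%), and the shorter one was chosen after those matches were seen. Snord49a and Snord49b shared 53 of 75 aligned positions (70.7%), while Snord65 shared 55.1% with Snord49a and 56.4% with Snord49b.

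Counts over all genes summed to between 973835 and 2570739 per library, and mitochondrially encoded RNAs took 64.6 to 88.1% of them. The 42 snoRNAs together took 8.04, 0.459 and 1.08% of the counts in controls 1 to 3 and 1.79, 9.23, 2.74 and 1.06% in knockouts 1 to 4. Control 1 and knockout 2 stood far above the other 5 libraries, and the groups overlapped over nearly their whole range (3.19 ± 4.21%, SD, n = 3, against 3.70 ± 3.75%, SD, n = 4). The widest 95% Wilson interval of a library, which covers counting error alone, was 9.18 to 9.28% (knockout 2), so counting error is small beside the spread between libraries. MicroRNAs were also high in those libraries (13.9% in control 1 and 17.8% in knockout 2), while nuclear protein-coding genes took 3.27% and 3.43% there and reached 18.2% in knockout 4. In bulk RNA, fewer nuclei in the fraction and less snoRNA per nucleus cannot be told apart.

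**Figure D1:**
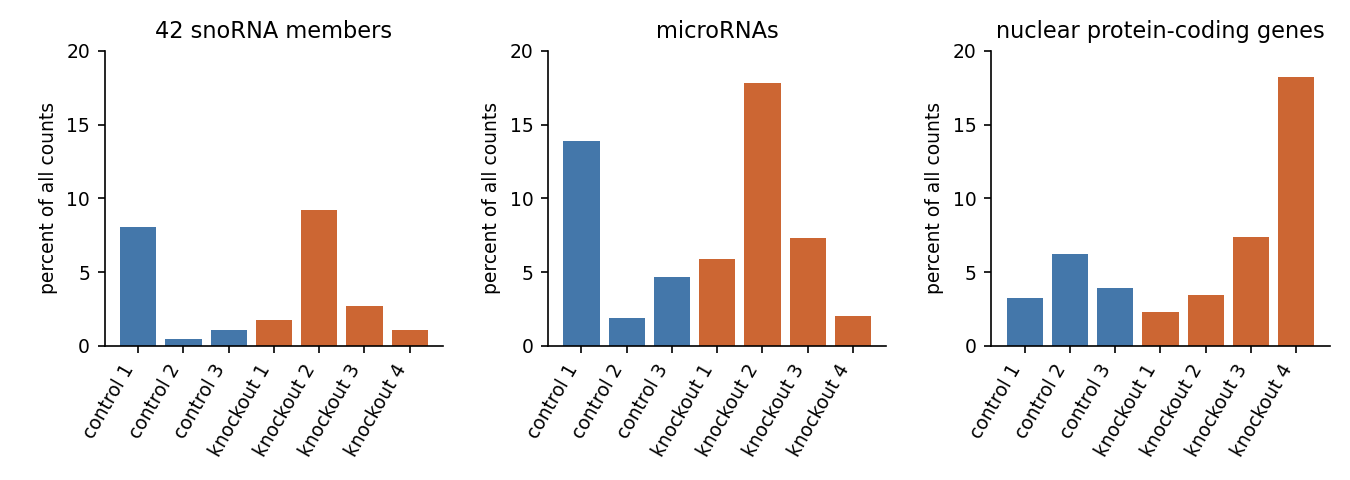
Share of all counts (percent, y axis) taken in each library (x axis; blue, control; orange, knockout) by the 42 snoRNA members, by microRNAs and by nuclear protein-coding genes. The snoRNA bars of control 1 (8.04%) and knockout 2 (9.23%) exceed the other 5, which lie between 0.459 and 2.74%.

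Summed over a list that includes the snoRNA Rnu73b, nuclear and nucleolar marker RNAs were highest in the same 2 libraries as the members. Single markers differed. The 10 listed RNAs, of which Terc was at 0, summed to 1003, 566 and 426 CPM (edgeR's normalised counts, with TMM scaling) in controls and to 475, 680, 289 and 413 in knockouts. Rmrp, the RNA of a nucleolar and mitochondrial ribonuclease, had 90.6, 18 and 9.58 CPM in controls and 55, 117, 23.1 and 12.9 in knockouts, again highest in control 1 and knockout 2. Rn7sk, a nuclear RNA that holds back transcription elongation, had 368, 185 and 200 CPM in controls and 163, 155, 105 and 100 in knockouts, so it was highest in control 1 alone. Every knockout value of Rn7sk lay below every control value, though edgeR did not call it (adjusted p = 0.279). Of all 1505 features tested, 23.9% did not overlap between groups in CPM. Malat1, a long noncoding RNA held in the nucleus, had 177, 293 and 153 CPM in controls and 102, 69.3, 87.2 and 235 in knockouts, so it was not highest in control 1 or knockout 2. Rnu73b, a row of that list typed snoRNA but outside the name rule, was highest in the same libraries as the members, with 163, 6.67 and 21.9 CPM in controls and 61.1, 231, 27.7 and 5.68 in knockouts. It made up 231 of the list's 680 CPM in knockout 2, and without it the sum of knockout 2 falls below that of control 2. The part of nuclear material, or of the cell types below, in the snoRNA levels was not tested. All 6 cardiomyocyte markers were counted (4119 to 6213 CPM in controls and 2216 to 3973 in knockouts), and of 4 neural markers Rbfox3, Snap25 and Syt1 were at 0. Endothelial markers summed to 70.5 to 136 CPM in controls and 28.1 to 74.7 in knockouts, white blood cell markers to 24.2 to 36.3 and 9.91 to 19.2, erythroid markers to 11.4 to 19.2 and 5.02 to 18.3, and fibroblast markers to 235 to 413 and 194 to 584. Tefm itself had 0, 2 and 1 counts in controls and 0, 1, 0 and 2 in knockouts, so its loss could not be seen at this depth.

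C/D box snoRNAs made up 99.3% of the members' 339660 counts, Scarna17 0.634% and the 2 H/ACA box snoRNAs 0.0501%. Control 1 and knockout 2 hold 72.3% of these counts, and within single libraries the H/ACA share ran from 0.0166 to 0.476%. The kinds also differ in length, and the libraries hold small RNA. The C/D box members have a median of 75 bases, against 130 for Snora31 and 127 for Snora28. The part of length in these shares was not tested. Snord55 held 32.9% of the counts, and the 10 most abundant members held 87.1%. Per base of its length Snord55 had 1415 summed counts, followed by Snord43 (516), Snord49a (352), Snord110 (325), Snord4a (265), Snord83b (190), Snord59a (171) and Snord49b (158). Snord43 is a member by its name but is typed miRNA, and it was left out of the microRNA sums. Its listed length is 108 bases, without TGATG starting in the first 20, and its level per base rests on that length. The 12 members that lie within ribosomal protein genes gave 66.7% of the counts, and 11 of them, all but Snord100, lie outside the exons and gave 66.4%. At the threshold, Snord23 (80 counts) and Snora28 (70) were the last inside, and Snord13 (69), the U13 snoRNA that guides acetylation of ribosomal RNA, and Snord89 (55) the first outside.

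Members that share a host gene differed in level. As ratios of counts per base within each library, Snord32a had 15 times the level of Snord35a in the median library (10.4 to 30.7 times; both in Rpl13a). Snord19 had 15.4 times that of Snord69 (8.87 to 21.9; Gnl3), Snord49a 7.19 times that of Snord65 (4.85 to 9.41; 2410006H16Rik) and Snord70 6.9 times that of Snord11 (2.12 to 13.3; Nop58). Snord4a had 5.82 times the level of Snord42a (3.88 to 6.33; Rpl23a) and Snord43 2.54 times that of Snord83b (1.85 to 4.47; Rpl3). The first of each pair was the higher in all 7 libraries, though Snord69 and Snord11 had as few as 5 and 7 counts in a library. Of the 30 listed host genes 24 had under 70 counts in all, with a median of 16, and 5 were listed at 0, among them Rpl13a, Rpl17 and Rpl37, while Atp5b had 2804. Snord4a and Snord42a lie wholly within exons of Tlcd1 on the other strand, and since no source used here gives the strand setting of the counting, their reads cannot be told apart from antisense ones; Tlcd1 itself had 5 counts in all.

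Many well known snoRNAs were listed at 0. Of the 149 rows with a snoRNA symbol, 77 had no count in any library, and 52 of the 77 (67.5%) lay wholly within an exon of another gene on the same strand, against 5 of the 72 rows with a count (6.94%). Those 5 were Snord19, Snord69, Snord100, Snora28 and Snora33. All 4 listed snoRNAs of Gas5, the 1 listed snoRNA of Snhg1 (Snord22), and Snord33 of Rpl13a were at 0, and each lay wholly within such an exon. A list for processing of the ribosomal RNA precursor, which includes Snord13, held 9 listed rows. Of these 5 were at 0, 3 had counts under the minimum and 1 was a member. That member was Snord118 (the U8 snoRNA, which acts in the maturation of the large subunit's ribosomal RNAs). Of the 18 rows at 0 outside exons, 17 were Snord116 copies of the imprinted array on chromosome 7 and 1 was Snora35. What counting reads that overlap 2 genes does to these zeros was not tested, so a row at 0 does not show that the snoRNA was absent.

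The level of single members followed the class. The highest CPM of each member was in control 1 (24 members) or knockout 2 (18), and the lowest was in control 2 or knockout 4 for 40 of 42, the exceptions being Snora31 and Snora28. CPM rest on the TMM factors, which ran from 0.515 (knockout 1) to 3.28 (knockout 4). As a share of all counts the members were lowest in control 2 (0.459%), not in knockout 4 (1.06%). The low place of knockout 4, and the ranges and spreads in CPM below, therefore depend on that scaling. Snord55 had 45491, 1691 and 6077 CPM in controls and 9631, 35897, 5417 and 998 in knockouts, so each group holds both a very high and a low library. Snord43 had 20540, 687 and 2164 CPM in controls and 8246, 18872, 2946 and 546 in knockouts. Snord49a had 5101, 172 and 785 CPM in controls and 3310, 12758, 1908 and 286 in knockouts. Scarna17 had 1049, 39.6 and 127 CPM in controls and 173, 498, 98.4 and 21.8 in knockouts, the same order of libraries as Snord55. The H/ACA box members stayed near the limit of detection, with 26, 18 and 8 counts of Snora31 in controls and 4, 9, 4 and 31 in knockouts. Snora28 had 17, 10 and 3 counts in controls and 4, 11, 4 and 21 in knockouts, so both H/ACA box members had more counts in knockout 4 than in the other knockouts. The highest library of a member exceeded its lowest 41.5-fold in the median (8.34- to 160-fold). The pooled within-group SD of log2 CPM had a median of 2.22 over the members, from Snora31 (0.977), Snord118 (1.07) and Snord7 (1.53) to Snord73a (2.40), Snord70 (2.42) and Snord100 (2.45) among the 40 most abundant. As log2 shares of the summed snoRNA counts the median SD was 0.280, and 39 of 42 members varied less on that scale than in CPM, all but Snord118, Snora31 and Snora28. That sum holds each member and moves with the class, so a smaller spread is partly built in. As log2 shares of their own class, the median SD was 0.362 for 138 microRNAs and 0.46 for 1459 nuclear protein-coding genes.

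**Figure D2:**
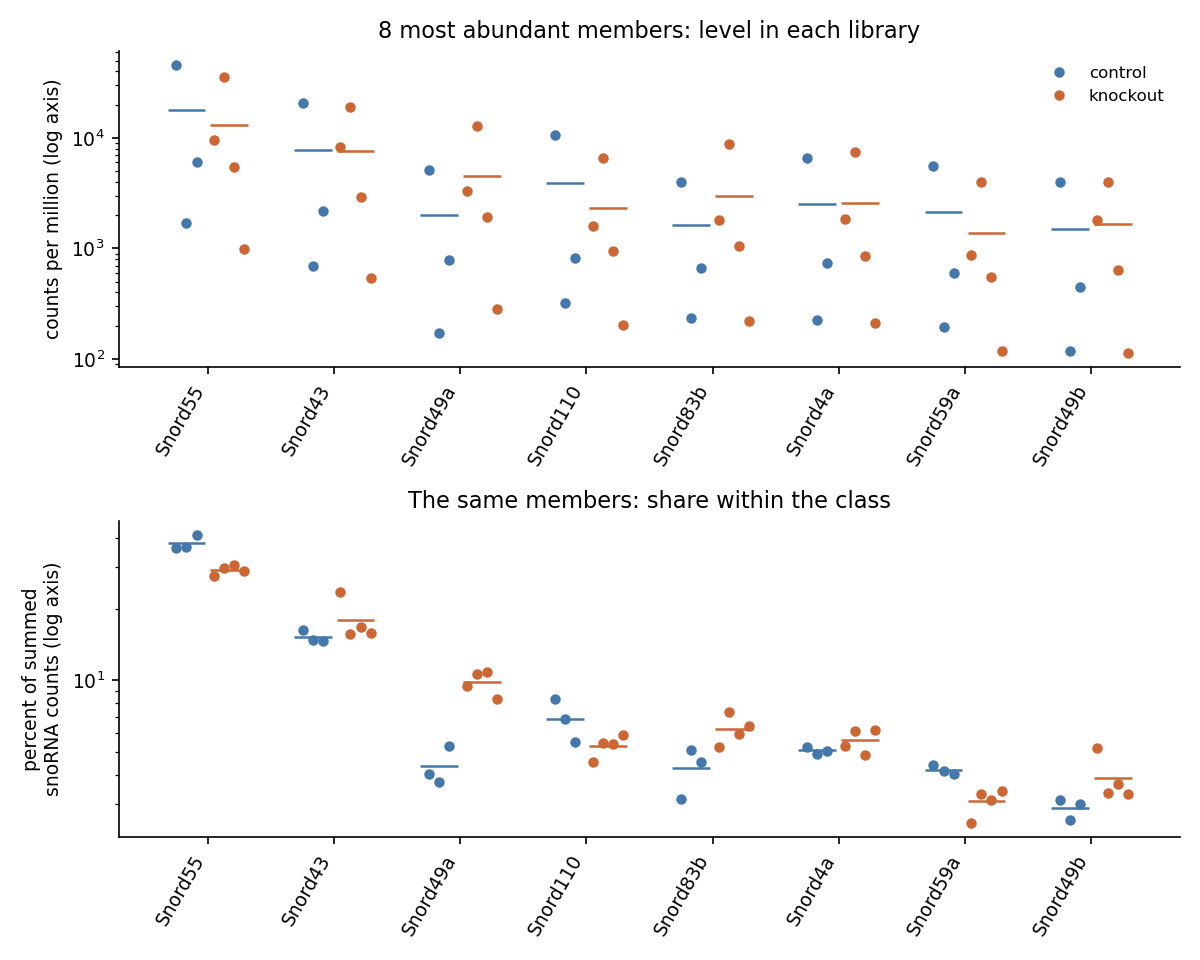
Level (upper panel, CPM) and share of the summed snoRNA counts (lower panel, percent) of the 8 most abundant members in each library (points; blue, control; orange, knockout; lines, group means; both y axes are logarithmic). In CPM the groups of every member shown overlap, while the shares of Snord55 (36.0 to 41.0% in controls, 27.5 to 30.7% in knockouts) do not.

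No snoRNA member passed the test between knockout and control. Of the 42 members 40 were tested (Snord23 and Snora31 fell under the filter on low counts), and 0 were called by edgeR's quasi-likelihood test at an adjusted p under 0.05, against 6.98% of all 1505 features tested (105 called). At an unadjusted p under 0.05 edgeR also gave 0 of the 40 members, against 23.5% of all features, and DESeq2 called 0 of the 40 (15.3% of all features). Without the filter on low counts edgeR called 1 member, Snord93 (1.21% of 15828 features), and with library sizes summed over all features it called 0 (7.71%). The median log2 fold change was -0.11 over the 40 members and 0.02 over all features, and 18 members had a positive value. The standard errors were wide (median 1.35). CPM of the groups overlapped for all 42 members, against 359 of 1505 features that did not overlap (23.9%).

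Without control 1 the median of the members was 2.05 and all 40 tested were positive, while without knockout 2 it was -1.29 and 3 of 39 were positive. The direction of the class therefore rests on which of those libraries is counted, and a scaling to total counts gave 0.31 (the median of all features was then 0.93).

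The largest estimates in edgeR were those of Snord93 (2.70 ± 1.35, SE; adjusted p = 0.278), Snord92 (1.72 ± 1.19; adjusted p = 0.422), Snord49a (1.18 ± 1.44; adjusted p = 0.686) and Snord65 (0.89 ± 1.40; adjusted p = 0.768). The smallest in edgeR were those of Snord90 (-1.22 ± 1.29; adjusted p = 0.626), Scarna17 (-1.03 ± 1.26; adjusted p = 0.683), Snord66 (-0.93 ± 1.35; adjusted p = 0.746) and Snord110 (-0.74 ± 1.42; adjusted p = 0.82). In the same edgeR fit Snord55 lay at -0.45 ± 1.39 (adjusted p = 0.894).

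**Figure D3:**
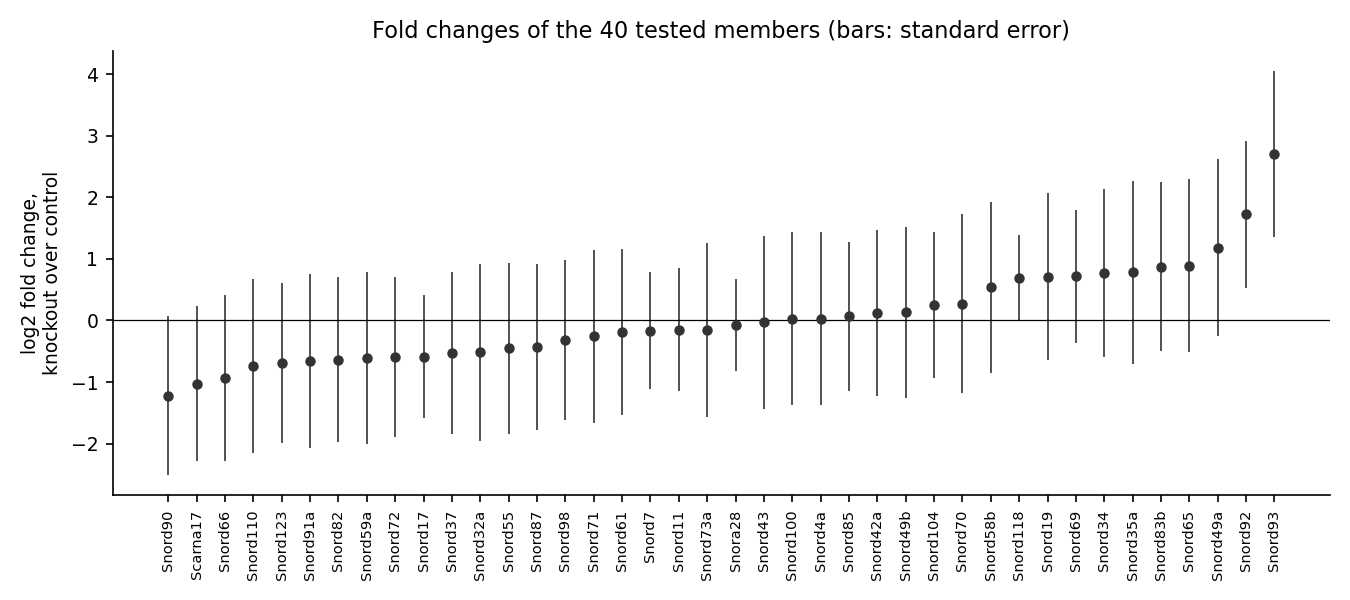
Log2 fold change, knockout over control, of the 40 tested members (points; bars, standard error; x axis, members in order of their value). The values run from -1.22 (Snord90) to 2.70 (Snord93), none of them past the test.

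Because the class moved as a whole between libraries, each member was also expressed as a share of the summed snoRNA counts of its library. For 16 of 42 members (38.1%) all knockout shares lay on 1 side of all control shares: 10 were higher with this reference (Snord93, Snord92, Snord49a, Snord49b, Snord65, Snord19, Snord34, Snord58b, Snord83b and Snord42a) and 6 lower (Snord55, Snord59a, Snord66, Snord37, Snord72 and Scarna17). That proportion is close to that of other classes measured the same way, 42.8% of 138 microRNAs as shares of microRNA counts and 30.3% of 1459 protein-coding genes as shares of their own sum. When all 1505 tested features were divided by the snoRNA sum, 3.12% did not overlap. With the edgeR fit scaled to that sum no feature was called, among them 0 of 40 members (1 at an unadjusted p under 0.05), and 0% of the 1505 passed. Shares sum to 100% in a library, so a high share of one member lowers the others: with the sum without Snord55 as the reference 7 members were higher and 9 lower, and with the median member 6 were higher and 11 lower, so the balance of higher and lower members turned with the reference. Of the 16, 13 kept their direction without overlap with the former and 12 with the latter, which were Snord55, Snord49a, Snord59a, Snord66, Snord65, Snord34, Snord19, Scarna17, Snord93, Snord37, Snord72 and Snord58b.

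Snord93 differed most in share. It took 0.0861, 0.0931 and 0.0969% of the snoRNA counts in controls and 0.636, 0.571, 0.840 and 0.962% in knockouts. The 3 control shares were nearly equal although their libraries differed 17.5-fold in the share of snoRNA counts. They rest on 108, 11 and 21 counts, so they lie closer together than such counts can resolve. The lowest knockout share was above the highest control share. The difference of mean log2 shares was 2.97, and the two-sided exact permutation test over 35 splits gave p = 0.0286, the smallest it can give, and 1 after adjustment over all 1505 features. Other members, among them Snord55, Snord49a and Scarna17, reached the same unadjusted p, so with so few splits the test cannot tell them apart. Raw counts of Snord93 were 108, 11 and 21 in controls and 146, 687, 224 and 105 in knockouts. Its host transcript, 2700038G22Rik, was at 0 in all libraries.

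Snord93 has a near copy, named Mir3096 and typed snoRNA in the files, and no source used here gives the treatment of reads that fit both. The copy lies on the same chromosome and differs from Snord93 by 1 substitution, T29A (Snord93 has T at position 29, counted from the 5′ end, and the copy A), shown in capitals.
Snord93 (chr5:23852210-23852280, plus strand): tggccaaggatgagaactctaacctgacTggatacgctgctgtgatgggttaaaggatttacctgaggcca
Mir3096 (chr5:23710991-23711061, minus strand): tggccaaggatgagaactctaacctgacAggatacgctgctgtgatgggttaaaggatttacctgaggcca
Mir3096 had 42, 0 and 7 counts in controls and 59, 290, 60 and 38 in knockouts, and edgeR put its log2 fold change at 2.82 ± 1.64 (adjusted p = 0.337). Added together, the 2 rows took 0.120, 0.0931 and 0.129% of the snoRNA counts in controls and 0.894, 0.813, 1.06 and 1.31% in knockouts, and the difference of mean log2 shares was then 3.12. How reads were split between the rows is uncertain; the sum does not depend on the split, but reads counted for both rows or for neither would still change it.

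As shares of the sum of all members, the 3 members of 2410006H16Rik were higher in knockouts, by different amounts. Snord49a took 4.04, 3.71 and 5.30% in controls and 9.45, 10.6, 10.8 and 8.3% in knockouts. Snord65 took 0.701, 0.720 and 0.563% in controls and 1.95, 1.27, 1.24 and 1.15% in knockouts. Snord49b took 3.13, 2.57 and 3.01% in controls and 5.16, 3.34, 3.64 and 3.32% in knockouts. It was not among the members kept with either other reference, so it separated with the sum of all members alone. The differences of mean log2 shares were 1.18, 1.06 and 0.39. The host transcript had 6 counts in all.

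In 4 of the other 5 shared hosts, 1 member had shares that did not overlap between groups while another's did, and in Nop58 both overlapped. In Rpl23a these were Snord42a and Snord4a. For Rpl23a and Rpl3 this held with the sum of all members alone, since Snord42a and Snord83b were not among those kept with either other reference. In Rpl13a, Snord34 took 0.609, 0.542 and 0.697% in controls and 1.06, 1.15, 1.31 and 1.15% in knockouts, without overlap, while the shares of Snord32a and Snord35a overlapped. In Gnl3, Snord19 took 0.473, 0.5 and 0.337% in controls and 0.850, 0.796, 0.956 and 0.953% in knockouts, while Snord69 overlapped. Snord69 had only 5 to 46 counts a library, and its difference of mean log2 shares (0.86) had the direction of Snord19's (1.04). Both rows lie wholly within exons of Gnl3, which had 0, 0 and 0 counts in controls and 2, 4, 8 and 7 in knockouts. In Rpl3, the shares of Snord43 overlapped and those of Snord83b did not (3.17, 5.09 and 4.51% in controls; 5.21, 7.35, 5.94 and 6.44% in knockouts).

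Of the members with lower shares in knockouts, Snord66, in an intron of Eif4g1, took 3.95, 3.95 and 3.87% in controls and 2.16, 2.24, 2.80 and 2.15% in knockouts. Scarna17 took 0.831, 0.855 and 0.854% in controls and 0.493, 0.413, 0.559 and 0.632% in knockouts. Snord59a, in an intron of Atp5b, took 4.40, 4.16 and 4.02% in controls and 2.51, 3.3, 3.12 and 3.41% in knockouts. Snord55 took 36.0, 36.5 and 41.0% in controls and 27.5, 29.7, 30.7 and 29.0% in knockouts. The median GC content of the members with a higher share was 48.2%, that of members with a lower share 45.9% and that of the others 44.0%, and their median lengths were 72, 77 and 84.5 bases (GC over 40 members).

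**Figure D4:**
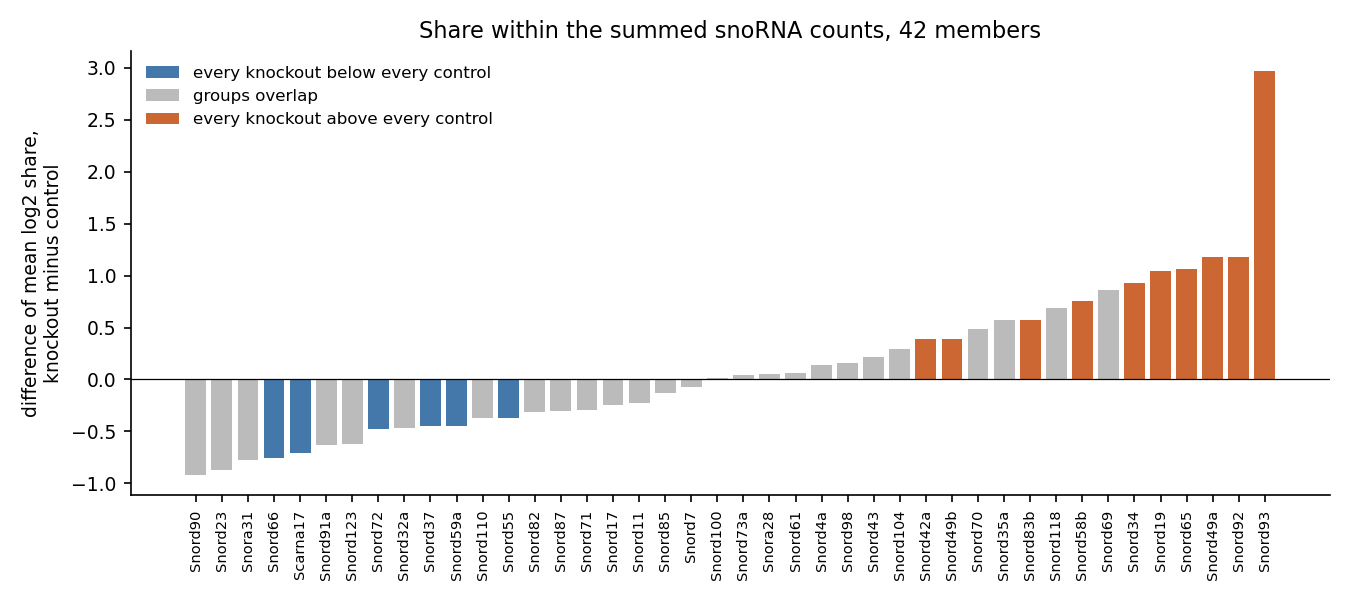
Difference of mean log2 share of the summed snoRNA counts, knockout minus control (y axis), for the 42 members in order (x axis); orange and blue mark members whose knockout libraries all lay above or all below the controls, grey those that overlapped. The values run from -0.92 (Snord90) to 2.97 (Snord93).

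A fit with a term for library composition was added after the values were seen, and 2 such terms were tried. With the log2 ratio of microRNA to nuclear protein-coding counts, which holds no snoRNA count, edgeR called 25% of the 1505 features and 3 of the 40 members: Snord93 (3.01 ± 0.45, SE; adjusted p = 0.00143), Snord92 (1.43 ± 0.33; adjusted p = 0.0121) and Snord49a (1.37 ± 0.43; adjusted p = 0.0408). With the ratio of the snoRNA members themselves to protein-coding counts edgeR called 20.3% of the features and 2 members, Snord93 (2.82; adjusted p = 0.000458) and Snord92 (1.18; adjusted p = 0.0279). In both fits the share of members called lay below that of all features. Leaving out each library in turn, Snord93 was called in every one of the 14 fits, Snord92 in 8 of them and Snord49a in 2. Those fits called 129 to 477 features each, of 1201 to 2355 tested. Snord92 had low counts, 44, 12 and 18 in controls and 38, 181, 30 and 21 in knockouts.

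The proteins and assembly factors of snoRNA particles could not be compared. Of 18 names 17 were listed, all with a count, and 0 passed the filter, with 141 counts in all over the libraries. Of the 30 listed host genes 5 were tested, and 1 was called, against 6.98% of all features: Ncl (nucleolin, an abundant nucleolar protein and the host of Snord82) rose, by 1.5 ± 0.32 on the log2 scale (adjusted p = 0.0366 in edgeR), with 9, 19 and 7 counts in controls and 10, 28, 28 and 58 in knockouts. Over 15 changes of scaling, filter, tool, replicate block or library left out, it passed in 4 and not in the other 11 (adjusted p from 0.00455 with DESeq2 to 1 in edgeR scaled to the snoRNA sum), so the call rests on the setting. It also passed in edgeR with the microRNA term (adjusted p = 0.00468). In edgeR Atp5b, host of Snord59a, lay at -0.02 ± 0.43 (adjusted p = 0.986) and Eif4g1, host of Snord66, at 0.37 ± 0.25 (adjusted p = 0.424).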

How the data were processed

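The libraries hold small RNA of crude heart mitochondria, read from a single end, per the labels' protocols. Their values are whole-number raw counts per feature, deposited by the authors in 1 file a library. Tools named in the submitters' processing notes, without their roles, are featureCounts, bedtools, Bowtie2, SAMtools 1.3.1 and cutadapt 1.10 with build mm10, and R 3.3.2 with DESeq2 1.14.1. No source used here gives the annotation, the strand setting or the treatment of reads with several matches. The authors' table of all features served for names and types alone.

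The main test was edgeR's quasi-likelihood test (version 4.0.16, R 4.3.3; TMM scaling, its default low-count filter at a minimum count of 10, two-sided), adjusted by Benjamini-Hochberg over 1505 features. Its code was also run on simulated libraries that shared the same composition, apart from the changes put in. Those lack the wide spread between the real libraries, so that run does not show the power or error rate of the test here. The printed SE is the absolute log2 fold change divided by the square root of edgeR's F statistic. DESeq2 1.42.0, 5 other scalings, other filters, the replicate block and each library left out were alternatives. Positions, hosts, exons and sequences came from GENCODE M21 (GRCm38) by identifier, near copies from blastn 2.17.0, and permutations and summaries from Python 3.11.15.

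The members, lists and alternatives were chosen with earlier results of these data known. Text values follow a rule: the most abundant members of each kind, every called member, the 4 largest and 4 smallest fold changes, the 3 largest and 3 smallest spreads, the rows next to the count minimum, and listed groups. Other members named for their shares were chosen after their values were seen, as were 25 further fits (the 2 composition terms, the class scaling with the block or without a library, and library sizes summed over all features). That last setting was the first one run; the library sizes were then changed to sums over the features past the filter, after its counts had been seen. Some details of 1 member are not reported here.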

Additional observations from a re-analysis of the deposited data

Results flagged for a closer look

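In 31 groups of 4 knockout libraries examined, 4 held 1 library far from the other 3, and chance alone flags about 1 in 20 such groups. Snord90 reached 178 CPM in knockout 2, against 9.46 to 35.1 in the other knockouts. The members together were also highest in knockout 2 (9.23% of all counts). As a share of the snoRNA counts Snord90 took 0.147% there, inside the 0.1 to 0.275% of the other knockouts. Snord43 took 23.5% of the snoRNA counts in knockout 1, against 15.6 to 16.7%. Snord65 took 1.95% in knockout 1, against 1.15 to 1.27%. Snord66 took 2.80% in knockout 3, against 2.15 to 2.24%. Their causes were not tested.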

How the results depend on the processing

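The 41 alternatives to the main fit, 16 of them planned and 25 added after seeing the data, left the count of called members at 0 except in these: 1 without the low-count filter (Snord93), 3 with the microRNA term and 2 with the snoRNA term. Leaving out each library in turn gave 0 members in the main fit, 1 to 8 with the microRNA term (8 without control 1, 4 without knockout 1, 3 without control 3 or knockout 3, 2 without knockout 2 or 4, 1 without control 2) and 1 to 3 with the snoRNA term. Over all features those fits called 159 to 477 with the microRNA term and 129 to 341 with the snoRNA term. The main fit called 0 to 75. Without control 1, the 8 of 40 members with the microRNA term stood beside 477 of 2339 features. Counts of calls over all features, 105 in the main fit, were 118 with RLE scaling, 8 with total or nuclear-encoded counts, 0 with snoRNA or microRNA sums, 192 without the filter, 3 at a minimum count of 30, 231 with DESeq2 and 116 with library sizes over all features; the cause of these differences was not tested.

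The replicate block gave 0 calls over all features and 0 members. Same-numbered libraries did not deviate together (correlations of 0.53, -0.80 and 0.32 over all tested features), so the numbers were not taken as pairs. With the block 38 of 40 members were positive with a median of 0.71, against 18 and -0.11 in the main fit, and among the members named by fold change the estimates changed sign for Snord55 (0.34), Scarna17 (0.02), Snord66 (0.11) and Snord110 (0.44).

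Leaving out 1 library moved the log2 fold changes from -2.66 to 1.27 (Snord90), -2.0 to 1.14 (Scarna17), -2.06 to 1.31 (Snord66), -2.04 to 1.93 (Snord110), -1.67 to 1.64 (Snord55), -0.03 to 3.3 (Snord65), -0.08 to 3.15 (Snord49a), 0.50 to 2.87 (Snord92) and 1.73 to 4.77 (Snord93). Control 1 turned the first 5 when left out and knockout 2 turned Snord65 and Snord49a, while Snord92 and Snord93 stayed positive in every setting run. Snord55 was 0.05 without knockout 4. With the microRNA term, leaving out 1 library also turned Snord55 (-0.55 to 0.09, 0.03 without knockout 1) and Snord110 (-0.75 to 0.33, and 0.00 without knockout 1).

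The difference in the snoRNA share of all counts was 0.513 percentage points and ranged from -1.33 to 2.94 with 1 library left out. The C/D box share within the members differed by 0.291 points, and by -0.0231 with the most abundant member of each kind left out. The median spread was 2.22 in log2 CPM, 2.16 with a pseudocount of 5 and 0.28 as a share. The number of members whose shares did not overlap was 16 to 17 under 3 references (10 higher and 6 lower, 7 and 9, 6 and 11) and 17 to 23 with 1 library left out (10 higher and 13 lower without control 3). Depth limits the members with few counts, the H/ACA members among them, and Tefm.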
